A study of Mus musculus with 6 samples.

Results

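Niclosamide, an oral anthelmintic and mitochondrial uncoupler, was compared with vehicle in uterine-derived, endometriosis-like lesions of mice, and the nuclear-encoded genes of the respiratory chain are described here. The 55 genes were chosen by their symbols, with earlier results of these data known, as subunits of the 5 complexes of oxidative phosphorylation, and all 55 were among the 41786 gene symbols counted and among the 17364 genes with enough counts to be tested. They comprised 23 genes of complex I, 4 of complex II, 7 of complex III, 10 of complex IV and 11 of complex V. Ndufa4 is counted with complex I by its symbol, although its product is known as a component of complex IV.

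The niclosamide group held 3 lesions from female C57BL/6 recipients given 200 mg/kg daily for 3 weeks, and the vehicle group held 3 libraries from recipients given vehicle for the same time. In both groups the lesion was grown from the uterus of a 6-week-old B6-GFP donor that was stitched to the peritoneal wall of wild type mice aged 8 weeks, with dosing from 3 days after grafting and collection in diestrus. Vehicle 1 was made from RNA of 4 mice and each of the other 5 libraries from a single mouse, so vehicle 1 is already an average. The lesion was separated from recipient tissue at collection, but how completely was not tested, and fast skeletal muscle markers took up to 4.87% of the counts of a library. The counted genes do not include the GFP transgene, so donor and recipient cells are not told apart in these values. In such bulk samples, fewer cells of a type and less RNA per cell cannot be told apart either.

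Complexes I to IV pass electrons from NADH and succinate to oxygen and, apart from complex II, pump protons out of the mitochondrial matrix; complex V, the ATP synthase, uses the returning protons to make ATP. An uncoupler carries protons back across the inner membrane without ATP being made, and electron transport then runs faster. Striated muscle is rich in mitochondria, and it replaces some broadly expressed subunits of complex IV by muscle isoforms, among them Cox6a2, Cox7a1 and Cox8b.

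The libraries held 27797121 to 34797000 counted reads, and the members took 0.834%, 0.662% and 0.815% of the counts in niclosamide 1 to 3, against 0.756%, 0.740% and 0.770% in vehicle 1 to 3. Skeletal muscle RNA varied far more: 24 fast skeletal muscle markers, none of them a member, took 4.87%, 0.126% and 1.805% of the counts in niclosamide 1 to 3, against 0.663%, 1.78% and 1.81% in vehicle 1 to 3. Niclosamide 1 and niclosamide 2 thus stood at the top and the bottom of all 6 libraries in muscle markers, and all 24 markers shared this order. The 95% Wilson intervals of these shares, which cover counting error only, were at most 0.00644 percentage points wide for the members and 0.0151 for the muscle markers. The 6 adipocyte markers tested had the same highest and lowest library. Markers of smooth muscle, the main tissue of the uterine wall, were averaged as log2 CPM (CPM, counts per 1000000 of the TMM-scaled library). Their means were 7.61, 7.21 and 8.79 in niclosamide 1 to 3, against 9.37, 8.91 and 9.33 in vehicle 1 to 3. Des and Synpo2 of this list were 3.71 and 7.71 times as high in niclosamide 1 as in niclosamide 2. The ratios of the other genes ran from 0.564 (Cnn1) to 1.51 (Myh11). The order of niclosamide 1 and niclosamide 2 in these means therefore leans on Des and Synpo2. Of these 10 markers, 8 were lower with niclosamide without overlap, against 6.37% of all genes. Epithelial markers averaged 4.66, 7.18 and 5.41 log2 CPM in niclosamide 1 to 3 and 7.07, 6.33 and 5.88 in vehicle 1 to 3. Among these 10 epithelial markers, 1 was lower without overlap. The 13 leukocyte markers averaged 7.24, 6.90 and 6.28 in niclosamide 1 to 3 and 6.65, 5.77 and 6.16 in vehicle 1 to 3. Of these 13, 4 were higher with niclosamide without overlap, against 5.90% of all genes. The part of these cell types in the values below was not tested, except where a skeletal muscle term is named.

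The promoters of 4 genes are shown because their windows hold different motifs: Sdha, whose messenger RNA was highest in the library with the most and lowest in the library with the least skeletal muscle RNA, the broad complex IV genes Cox6a1 and Cox8a, which were not, and Cox8b, the muscle counterpart of Cox8a. Each is the RefSeq window of 300 bases from 250 before to 50 after the annotated start, 5′ to 3′ on the gene's strand, in GRCm38.p6. Capitals mark matches on either strand to CCGGAAG (ETS factors, which include GABP), GCGCANGCG (nuclear respiratory factor 1), AAGATGGCG (YY1) and CAGCTG (an E-box bound by muscle factors); neighbouring matches of the nuclear respiratory factor motif can overlap because it is nearly its own reverse complement.
Sdha (chr13:74350191-74350490, minus strand): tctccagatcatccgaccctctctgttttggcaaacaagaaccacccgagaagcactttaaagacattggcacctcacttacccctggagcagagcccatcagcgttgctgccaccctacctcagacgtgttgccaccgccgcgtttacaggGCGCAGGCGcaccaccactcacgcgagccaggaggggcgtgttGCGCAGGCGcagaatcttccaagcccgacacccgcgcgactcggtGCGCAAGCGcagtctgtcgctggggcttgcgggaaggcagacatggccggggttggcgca
Cox6a1 (chr5:115348909-115349208, minus strand): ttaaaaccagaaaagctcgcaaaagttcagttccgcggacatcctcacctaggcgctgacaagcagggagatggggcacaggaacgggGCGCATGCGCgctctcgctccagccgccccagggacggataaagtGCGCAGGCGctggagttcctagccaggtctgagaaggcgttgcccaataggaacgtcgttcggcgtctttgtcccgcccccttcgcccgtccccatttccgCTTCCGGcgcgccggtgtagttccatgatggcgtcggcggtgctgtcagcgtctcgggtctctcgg
Cox8a (chr19:7217567-7217866, minus strand): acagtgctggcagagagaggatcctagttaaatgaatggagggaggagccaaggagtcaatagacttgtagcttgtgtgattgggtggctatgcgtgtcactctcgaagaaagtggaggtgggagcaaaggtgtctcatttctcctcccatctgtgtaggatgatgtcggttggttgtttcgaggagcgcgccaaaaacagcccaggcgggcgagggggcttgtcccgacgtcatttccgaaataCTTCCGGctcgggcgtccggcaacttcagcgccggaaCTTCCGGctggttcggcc
Cox8b (chr7:140900397-140900696, minus strand): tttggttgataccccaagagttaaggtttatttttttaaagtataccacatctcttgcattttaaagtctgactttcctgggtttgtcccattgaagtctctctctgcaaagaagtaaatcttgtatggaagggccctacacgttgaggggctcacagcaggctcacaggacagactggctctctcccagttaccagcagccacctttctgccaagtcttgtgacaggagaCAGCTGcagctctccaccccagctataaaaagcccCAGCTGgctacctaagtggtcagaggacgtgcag

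Of the 55 members, 45 had a promoter window, and 25 of these 45 (55.6%) held at least 1 match to the ETS, nuclear respiratory factor 1 or YY1 motif, against 16.5% of the 27025 genes with a window. The ETS motif was in 13 (28.9%; all genes 9.9%), the nuclear respiratory factor 1 motif in 14 (31.1%; all genes 7.0%) and the YY1 motif in 4 (8.9%; all genes 1.6%). The E-box was in 4 members (8.9%), against 18.3% of all genes and 9 of the 18 fast muscle markers with a window. Of those 18 marker genes, 1 held any of the other 3 motifs. The muscle isoforms differed: Cox8b had 2 E-box matches, the window of Cox7a1 held none of these motifs, and Cox6a2 had no window. The background holds every gene with a window, whether or not it was expressed in the lesions. Genes of like level or like base content were not compared, so these shares do not set the members apart from other well expressed genes. The motifs are short strings and their presence is a description of the window, not of a bound factor.

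By length, the members were among the well expressed genes of the lesions. Their mean over the 6 libraries ran from 42.1 to 428 CPM per kilobase of annotated exon on the chromosome, with a median of 116 over the 55 genes against 6.51 over all genes tested. Complex IV had the highest median level per length, 190, followed by complex V with 167, complex II with 113, complex III with 99.3 and complex I with 79.9. Atp5b, the catalytic subunit of the ATP synthase, stood at 428 ± 40.5 (SD over 6 libraries) CPM per kilobase, and Cox4i1, a nuclear subunit of complex IV, at 370 ± 35.3. Both led the order, and their ranges of 1 SD overlapped. At the other end, Ndufs1, the largest subunit of complex I which carries iron-sulfur clusters, had 42.1 ± 9.22. Such levels depend on the annotated length. Ndufa7, an accessory subunit named after its values were seen, is annotated on 4 sequences of the build with 4804 bases of exon in all, of which 1201 lie on the chromosome, and it stood at 49.6 ± 3.13 by the chromosome's length. The 4 genes of complex II lay between 94.1 and 116 CPM per kilobase, the narrowest span of the 5 complexes.

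**Figure D1:**
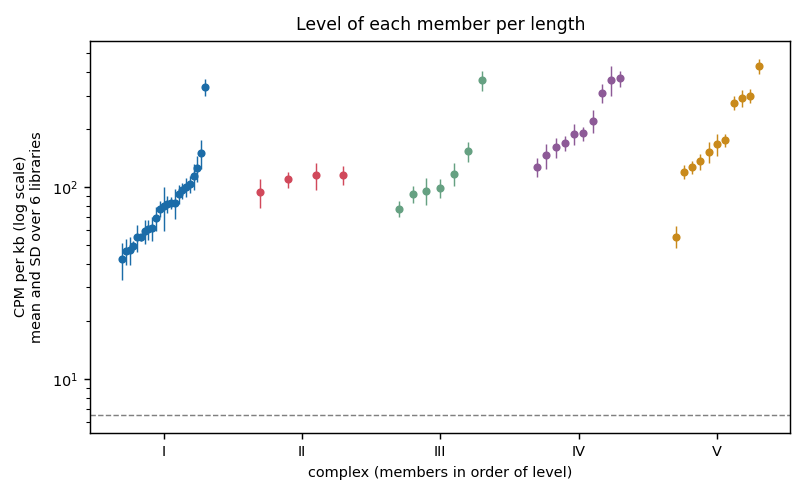
Mean level of each of the 55 members over 6 libraries in CPM per kilobase (log scale), with the SD as bars and members ordered by level within each complex; the dashed line is the median of all genes tested. All members lie above that median of 6.51, and complex I spans 42.1 to 333.

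No member passed the test between niclosamide and vehicle, and for most members the 2 groups of libraries overlapped. In edgeR's quasi-likelihood test, adjusted over all 17364 genes by the Benjamini-Hochberg method, 0 of 55 members passed 0.05, as did 0% of all genes, and the lowest adjusted p of a member was 0.681. Without adjustment, 1 member was higher at p under 0.05 (3.37% of all genes were) and 0 were lower (3.55% of all genes were); with DESeq2, 0 members passed an adjusted p of 0.05, against 0.982% of all genes. The libraries of the 2 groups did not overlap for 2 members that were higher with niclosamide, Sdhd and Cox7b, against 5.90% of all genes, and for 1 that was lower, Ndufa4, against 6.37%. These counts were near or below the background of all genes.

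Of the 55 log2 fold changes (niclosamide over vehicle), 49 were above 0 and 6 below, against 53.7% above 0 among all genes, and their median was 0.07 against 0.02 for all genes. The median was 0.07 in complex I, 0.14 in complex II, 0.10 in complex III, 0.07 in complex IV and 0.07 in complex V. This lean was small and turned on single libraries: without niclosamide 1 the median over the members was -0.03, with 25 above 0 and 30 below, and without vehicle 2 it was 0.02, with 30 above and 25 below. Without niclosamide 2 it was 0.16, and without both niclosamide 1 and niclosamide 2, an alternative chosen after seeing the data, it was 0.06 with 38 above and 17 below. Other subunits of the same complexes gave a like picture, with 22 of 25 above 0 and a median of 0.11. Assembly factors had 27 of 40 above 0 and a median of 0.07, and citric acid cycle genes 12 of 16 and 0.07. Mitochondrial ribosome genes lay nearer to all genes, with 45 of 77 above 0 and a median of 0.02. In each of these lists 0 genes passed the threshold.

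The size of change that the data leave room for was limited. The 95% intervals of all 55 members, each for its own gene and not adjusted, lay within a log2 change of 1 in either direction, from a lower bound of -0.53 for Ndufa4, a 0.694-fold level, to an upper bound of 0.91 for Ndufb5, a 1.88-fold level. Among all genes 58.6% had such an interval. A narrower band of 0.5 log2 units held the intervals of 31 members (56.4%), against 22.2% of all genes. Every member lay at or above percentile 89.7 of level per length among the genes tested. Genes of like level were not compared, so these shares do not set the members apart from other well expressed genes.

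**Figure D2:**
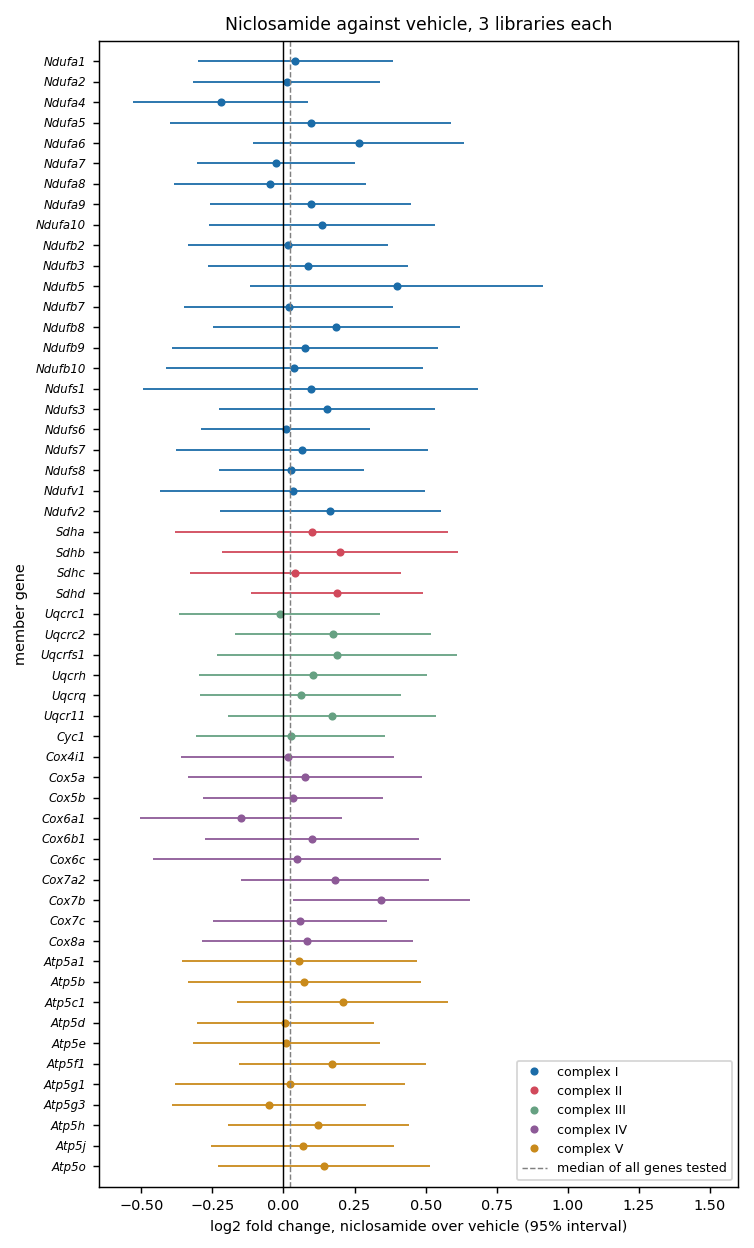
Log2 fold change of each member, niclosamide over vehicle, from edgeR's quasi-likelihood fit (points) with 95% intervals (bars), 3 libraries per group, coloured by complex; the dashed line is the median of all genes tested. Every interval but that of Cox7b crosses 0, and none reaches beyond 1 log2 unit.

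Complex I, the NADH dehydrogenase, takes electrons from NADH through the flavin-bearing subunit Ndufv1 and the iron-sulfur subunits Ndufs1 and Ndufs8. Ndufs1 had 170, 90.4 and 128 CPM in niclosamide 1 to 3, against 103, 127 and 133 CPM in vehicle 1 to 3. Ndufv1 had 113, 67.4 and 87.2 CPM in niclosamide 1 to 3, against 86.0, 86.6 and 88.9 CPM in vehicle 1 to 3. For both genes niclosamide 1 was at the top and niclosamide 2 at the bottom, while the log2 fold changes between the groups were 0.10 ± 0.25 (SE) and 0.03 ± 0.19. Ndufs8 was steadier, with 58.5, 53.3 and 58.6 CPM in niclosamide 1 to 3, against 58.5, 53.7 and 55.1 CPM in vehicle 1 to 3. Its highest library exceeded its lowest by 1.10 times, against a median of 1.36 times over the members and 1.79 times over all genes.

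In the fit of all 6 libraries, the highest and the lowest signed fold change of the members both fell in complex I as grouped by symbol. The lowest was that of Ndufa4, whose product is known as a component of complex IV. Without Ndufa4 the lowest log2 fold change of complex I was -0.05. Ndufb5, an accessory subunit of the membrane arm, had 123, 72.7 and 83.4 CPM in niclosamide 1 to 3, against 69.0, 64.9 and 78.1 CPM in vehicle 1 to 3. Vehicle 3 lay above niclosamide 2, and the log2 fold change of 0.40 ± 0.21 did not pass the test (adjusted p = 0.805, edgeR). Without niclosamide 1 it was 0.14, below the 0.30 of Cox7b in the same fit. Ndufa4 had 137, 151.5 and 166 CPM in niclosamide 1 to 3, against 176, 171 and 183 CPM in vehicle 1 to 3. All 3 niclosamide libraries lay below all 3 vehicle libraries, with a log2 fold change of -0.22 ± 0.13 that did not pass the test either (edgeR adjusted p = 0.835). Over the 23 genes, 20 log2 fold changes were above 0 and none had an unadjusted p under 0.05.

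Complex II, succinate dehydrogenase, is also an enzyme of the citric acid cycle and is the complex whose subunits are all encoded in the nucleus. Sdha, its flavoprotein, had 352, 218 and 264 CPM in niclosamide 1 to 3, against 249, 258 and 272 CPM in vehicle 1 to 3. Sdhb, its iron-sulfur subunit, had 161, 105 and 133 CPM in niclosamide 1 to 3, against 118, 116 and 114 CPM in vehicle 1 to 3. Niclosamide 1 was highest and niclosamide 2 lowest for both. The membrane anchor Sdhc had the same extremes, with 163, 117 and 137 CPM in niclosamide 1 to 3, against 137, 127 and 141 CPM in vehicle 1 to 3. The other anchor, Sdhd, had 160, 146 and 146 CPM in niclosamide 1 to 3, against 143, 120 and 133 CPM in vehicle 1 to 3. Here the groups did not overlap, by a margin of 145.9 CPM in niclosamide 2 over 143.4 CPM in vehicle 1, and the log2 fold change of 0.19 ± 0.13 gave an edgeR adjusted p of 0.878.

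Complex III passes electrons from ubiquinol to cytochrome c. Its haem-bearing subunit Cyc1 had 108, 80.6 and 90.8 CPM in niclosamide 1 to 3, against 93.8, 93.4 and 87.1 CPM in vehicle 1 to 3. The Rieske iron-sulfur protein gene Uqcrfs1, with the highest signed fold change of the complex, had 166, 110 and 127 CPM in niclosamide 1 to 3, against 118, 110 and 125 CPM in vehicle 1 to 3. The core subunit Uqcrc1, with the lowest, had 176, 130 and 150 CPM in niclosamide 1 to 3, against 159, 154 and 147 CPM in vehicle 1 to 3. Niclosamide 1 held the highest and niclosamide 2 the lowest value of each, so that the niclosamide libraries enclosed the vehicle libraries. Their log2 fold changes were 0.03 ± 0.14, 0.19 ± 0.18 and -0.01 ± 0.15, and the other 4 genes of the complex lay between those of Uqcrc1 and Uqcrfs1.

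Complex IV, cytochrome c oxidase, hands the electrons to oxygen. Cox4i1 had 300.3, 263 and 289 CPM in niclosamide 1 to 3, against 311, 238 and 294 CPM in vehicle 1 to 3. Cox5a, a matrix-side subunit, had 191, 143 and 141 CPM in niclosamide 1 to 3, against 166, 134 and 151 CPM in vehicle 1 to 3. Vehicle 2 was the lowest library for both. Cox7b, a small subunit of the complex, had 174, 147 and 173 CPM in niclosamide 1 to 3, against 120.4, 134 and 135 CPM in vehicle 1 to 3. It was the member with the smallest unadjusted p, 0.0351 (edgeR, adjusted p = 0.681), all 3 niclosamide libraries exceeded all 3 vehicle libraries, and the log2 fold change was 0.34 ± 0.13. It did not pass the adjusted test in any of the alternatives run, in which its adjusted p ranged from 0.407 to 1.

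The 3 broadly expressed subunits that have a muscle counterpart ran the other way from most members between niclosamide 1 and niclosamide 2. Cox6a1 had 84.0, 104 and 99.6 CPM in niclosamide 1 to 3, against 122, 95.5 and 102 CPM in vehicle 1 to 3; 12.3% of its 50-base stretches also occur in other annotated genes, so its counts are less certain. Cox7a2 had 93.6, 102 and 110 CPM in niclosamide 1 to 3, against 102, 80.8 and 86.2 CPM in vehicle 1 to 3. Cox8a had 88.6, 97.4 and 85.3 CPM in niclosamide 1 to 3, against 103, 77.3 and 75.8 CPM in vehicle 1 to 3. In niclosamide 1 they stood at 0.810, 0.917 and 0.910 times their level in niclosamide 2, a ratio of single libraries with no test. Only 4 of the 55 members (7.27%) were lower in niclosamide 1 than in niclosamide 2, these 3 and Ndufa4, against 49.7% of all genes tested, while 12 members (21.8%) were at least 1.5 times higher in niclosamide 1, against 17.8% of all genes. Among subunits outside the members, Atpif1, Cox7a2l and Ndufc2 were also lower in niclosamide 1, at 0.750, 0.845 and 0.957 times, against a median of 1.24 times over that list. The direction was therefore not limited to genes with a muscle counterpart.

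Complex V makes ATP in its soluble head, which holds Atp5b, and lets protons through the membrane ring, encoded by Atp5g1 and Atp5g3 among others. Atp5b had 944 CPM in niclosamide 1, 753 CPM in niclosamide 2 and 777 CPM in niclosamide 3, against 812, 812 and 728 CPM in vehicle 1 to 3. Atp5g1 had 57.4, 38.0 and 49.5 CPM in niclosamide 1 to 3, against 47.7, 49.1 and 45.7 CPM in vehicle 1 to 3. Of the 50-base stretches in its longest annotated transcript, 10.6% occur in other genes. That transcript has 4715 bases against 868 bases of counted exon, so the share need not hold for the counted sequence. Atp5g3, which encodes the same mature ring protein and had the lowest signed fold change of the complex, had 228, 194 and 215 CPM in niclosamide 1 to 3, against 240.5, 197 and 222 CPM in vehicle 1 to 3. Between niclosamide 1 and niclosamide 2, Atp5g1 differed by 1.51 times and Atp5g3 by 1.18 times. Atp5c1, the central stalk subunit and the gene with the largest fold change of the complex, had 335, 249 and 304 CPM in niclosamide 1 to 3, against 252, 255 and 261 CPM in vehicle 1 to 3, a log2 fold change of 0.21 ± 0.15 (edgeR adjusted p = 0.906). Vehicle 1 to 3 lay between niclosamide 2 and niclosamide 3 for this gene. The other genes of the complex had log2 fold changes between -0.05 and 0.21, and 10 of the 11 were above 0.

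**Figure D3:**
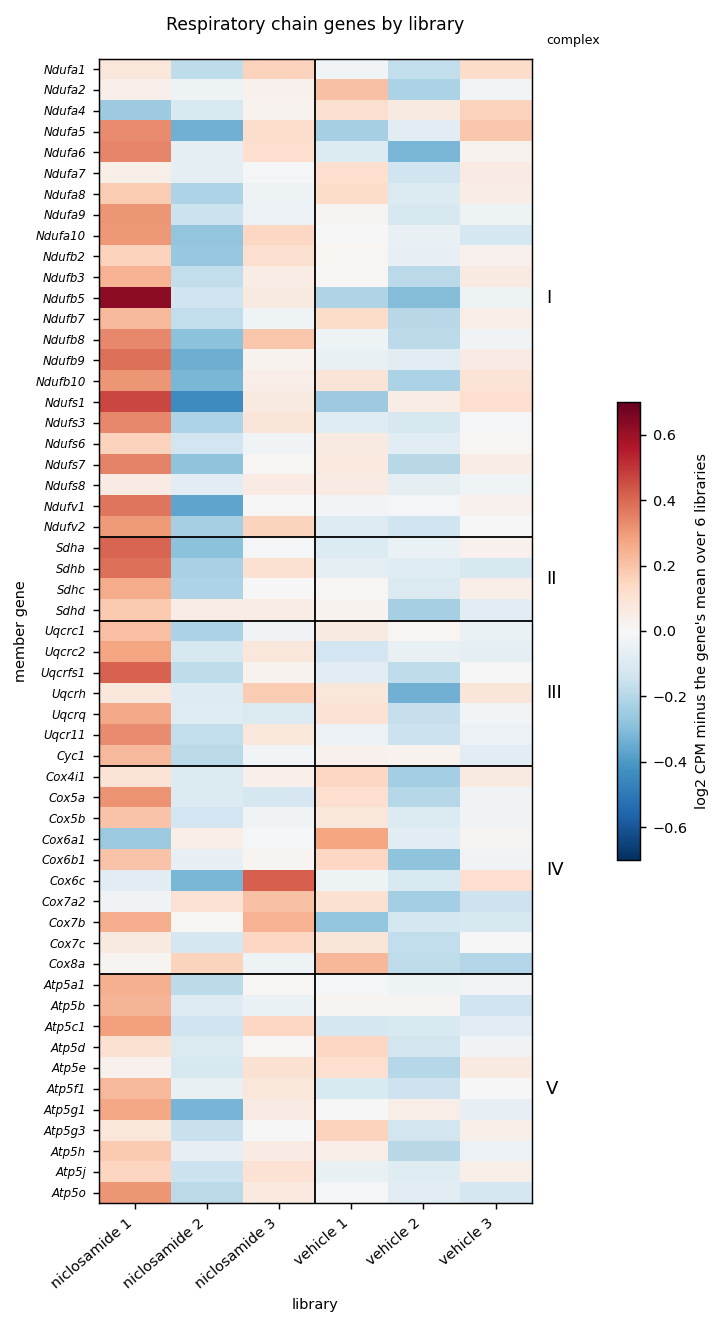
Log2 CPM of each of the 55 members in each library minus that gene's mean over the 6 libraries, niclosamide 1 to 3 on the left and vehicle 1 to 3 on the right, with lines between the complexes. Red is above and blue below the gene's mean; niclosamide 1 is the reddest column, the highest library for 40 members, and niclosamide 2 the bluest, the lowest for 31.

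Seen by library, the members varied more within the niclosamide group than between the groups. Their mean log2 CPM was 6.96, 6.59 and 6.81 in niclosamide 1 to 3, against 6.77, 6.63 and 6.75 in vehicle 1 to 3, which is 6.79 ± 0.19 (SD, n = 3) with niclosamide and 6.71 ± 0.08 (SD, n = 3) with vehicle. The median ratio of the highest to the lowest library was 1.33 within niclosamide and 1.13 within vehicle, against 1.52 within niclosamide and 1.34 within vehicle over all genes. Vehicle 1, with RNA of 4 mice, is already an average, so the spreads of the groups are not like for like, and their difference was not tested. Niclosamide 1 was the highest library for 40 of 55 members (72.7%; all genes 24.9%) and niclosamide 2 the lowest for 31 (56.4%; all genes 21%). Both held for 27 members (49.1%), against 8.01% of all genes. By complex, these were 14 of 23 genes in complex I, 3 of 4 in complex II, 4 of 7 in complex III, 1 of 10 in complex IV and 5 of 11 in complex V.

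Complex I averaged 6.35, 5.89 and 6.16 log2 CPM in niclosamide 1 to 3, against 6.09, 5.97 and 6.13 in vehicle 1 to 3, and complex II averaged 7.62, 7.14 and 7.35 in niclosamide 1 to 3, against 7.28, 7.19 and 7.28 in vehicle 1 to 3. Complex IV averaged 7.08, 6.95 and 7.09 in niclosamide 1 to 3, against 7.09, 6.84 and 6.97 in vehicle 1 to 3. In complexes I and II the niclosamide libraries lay on both sides of all vehicle libraries, whereas in complex IV vehicle 2 was the lowest of the 6. The citric acid cycle and pyruvate dehydrogenase genes had the extremes of niclosamide 1 and niclosamide 2 in 13 of 16 cases (81.2%), while the mitochondrial ribosome genes had them in 4 of 77 (5.19%), below the 8.01% of all genes. The ribosomal RNAs of the mitochondrial genome ran in another order: Rnr1 had 659, 380.2 and 371 CPM in niclosamide 1 to 3, against 468, 387 and 536 CPM in vehicle 1 to 3, and Rnr2 had 1142, 627 and 579 CPM in niclosamide 1 to 3, against 832, 639 and 896 CPM in vehicle 1 to 3.

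The order of the libraries was set beside their skeletal muscle level, the mean log2 CPM of the 24 fast muscle markers, which was 10.5, 5.35 and 8.84 in niclosamide 1 to 3, against 7.52, 8.88 and 8.96 in vehicle 1 to 3. A fit with the group and this level as terms gave, for each gene, a slope in log2 units per doubling of the muscle level. The slope was above 0 for 50 of 55 members, with a median of 0.07 against 0.0046 over all genes, and 0 members passed an adjusted p of 0.05 in either direction, against 2.46% of all genes with a positive and 1.06% with a negative slope. Without adjustment, 12 members had a positive slope at p under 0.05, against 7.98% of all genes; 9 of these members were in complex I, 2 in complex II and 1 in complex V. Leaving out niclosamide 1, 2 or 3 gave 3, 1 and 9 such members, against 12.1%, 3.88% and 8.82% of all genes, and leaving out vehicle 1, 2 or 3 gave 14, 7 and 3, against 6.82%, 6.59% and 5.73%. The median slope was 0.08 in complex I, 0.09 in complex II, 0.07 in complex III, 0.03 in complex IV and 0.05 in complex V; the differences between complexes were not tested.

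Ndufs1 had the steepest slope of the members, 0.18 ± 0.04 (SE; edgeR adjusted p = 0.0633), and Cox6a1 the lowest, -0.07 ± 0.04 (edgeR adjusted p = 0.519). Sdha had 0.12 ± 0.04 and Ndufv1 0.13 ± 0.04, while Cox4i1 had 0.02 ± 0.05 and Sdhd 0.01 ± 0.04. Epithelial markers ran against the muscle level, with a negative slope called for 8 of 10. All 6 adipocyte markers tested had a positive slope, with 0 called. Their mean log2 CPM followed the muscle level in niclosamide 1 to 3 but fell from 4.41 to 3.56 and 1.94 in vehicle 1 to 3, where the muscle level rose. A slope on muscle thus cannot be told apart from a slope on epithelial cells, nor, within the niclosamide libraries, from one on adipocytes. The slopes leaned on the 2 libraries with extreme muscle levels. Without niclosamide 2 the median slope over the members was 0.03 with 36 above 0, and without niclosamide 1 it was 0.04 with 44 above 0; without both it was -0.07 with 14 above 0. At equal muscle level, the niclosamide effect had a median of 0.07 over the members, with 49 above 0 (50.5% of all genes were) and 6 below, and 0 members were called, as were 0% of all genes; the lowest adjusted p was 0.407 (edgeR).

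**Figure D4:**
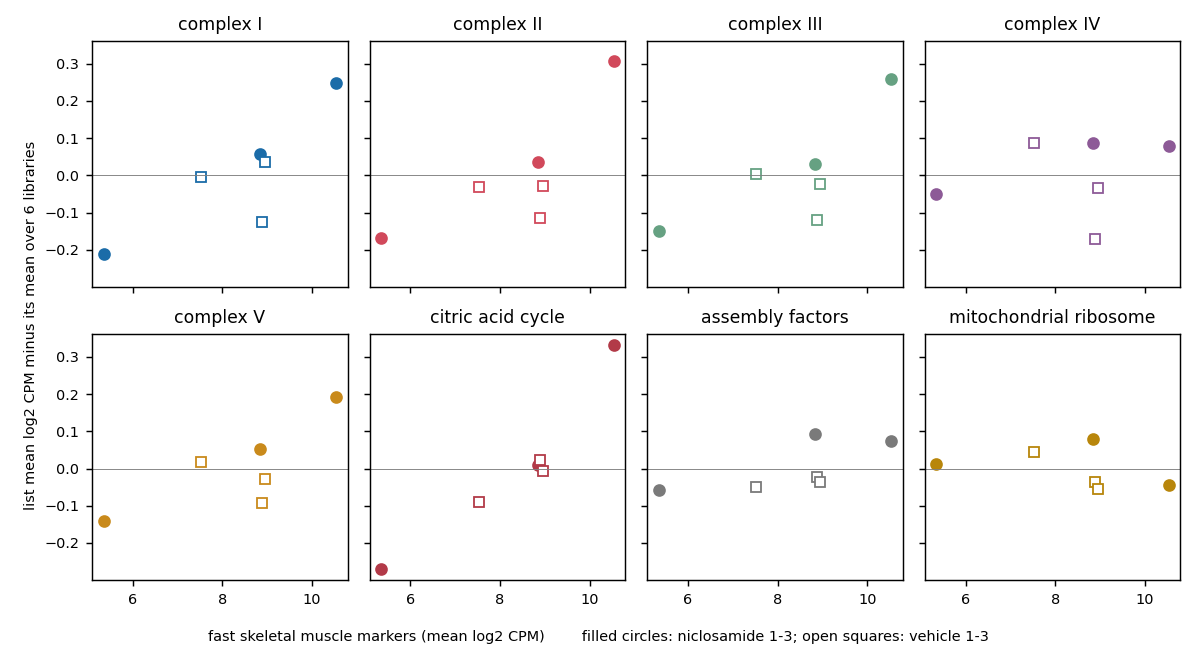
Mean log2 CPM of each complex and of 3 other mitochondrial lists in each library, minus the list's mean over the 6 libraries, against the mean log2 CPM of 24 fast skeletal muscle markers; filled circles are niclosamide 1 to 3 and open squares vehicle 1 to 3. The lowest and the highest muscle level, 5.35 and 10.5, are niclosamide 2 and niclosamide 1, and the lists other than complex IV, the assembly factors and the mitochondrial ribosome have their own lowest and highest means in these libraries.

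The muscle isoforms of complex IV followed the markers closely. Cox6a2 had 125, 5.16 and 49.8 CPM in niclosamide 1 to 3, against 23.5, 34.6 and 49.2 CPM in vehicle 1 to 3. Cox7a1 had 29.5, 2.29 and 13.4 CPM in niclosamide 1 to 3, against 7.87, 10.3 and 13.8 CPM in vehicle 1 to 3, and Cox8b had 39.4, 3.27 and 17.0 CPM in niclosamide 1 to 3, against 9.69, 13.1 and 18.2 CPM in vehicle 1 to 3. The niclosamide libraries enclosed all vehicle libraries for the 3 genes, and their log2 fold changes between the groups had errors larger than themselves, 0.75 ± 0.95, 0.49 ± 0.80 and 0.54 ± 0.79. Their slopes on the muscle level were 0.87 ± 0.07, 0.69 ± 0.07 and 0.67 ± 0.06, with edgeR adjusted p-values of 0.00357, 0.00677 and 0.00529. Without niclosamide 2 the slopes were 0.70 ± 0.13, 0.56 ± 0.15 and 0.61 ± 0.14 and were no longer called (edgeR adjusted p = 0.381, 0.606 and 0.514), and 0 genes of any kind were called for the muscle term, against 611 in all 6 libraries. Leaving out niclosamide 1 or niclosamide 3 gave 1087 and 930 called genes, and leaving out vehicle 1, 2 or 3 gave 283, 299 and 233, with the 3 isoforms called each time.

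Per length, Cox6a2 stood at 120.5%, 4.02% and 40.5% of Cox6a1 in niclosamide 1 to 3, against 15.7%, 29.3% and 39.0% in vehicle 1 to 3, so niclosamide 1 was the library in which the muscle isoform exceeded the broad gene. Cox8b stood at 66.7%, 5.04% and 29.9% of Cox8a in niclosamide 1 to 3, against 14.2%, 25.5% and 35.9% in vehicle 1 to 3. Summed per length, each pair was higher in niclosamide 1 than in niclosamide 2, by 1.72 times for Cox6a1 with Cox6a2, 1.45 times for Cox7a2 with Cox7a1 and 1.44 times for Cox8a with Cox8b. That is the direction of most other members, which the broad gene of each pair did not share. The sums take this direction from Cox6a2, Cox7a1 and Cox8b, which had 190, 80.5 and 109 CPM per kilobase in niclosamide 1, against 7.83, 6.24 and 9.02 in niclosamide 2. The part of isoform replacement in this was not tested. The remaining isoforms did not follow the muscle markers in this way: Ndufa4l2, a homologue of Ndufa4, had 4.41, 14.5 and 6.59 CPM in niclosamide 1 to 3, against 5.46, 5.653 and 5.68 CPM in vehicle 1 to 3, and was highest in the library with the least muscle. Cox8c and Cyct, known from testis, had at most 7 and 2 counts in a library and were not tested.

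**Figure D5:**
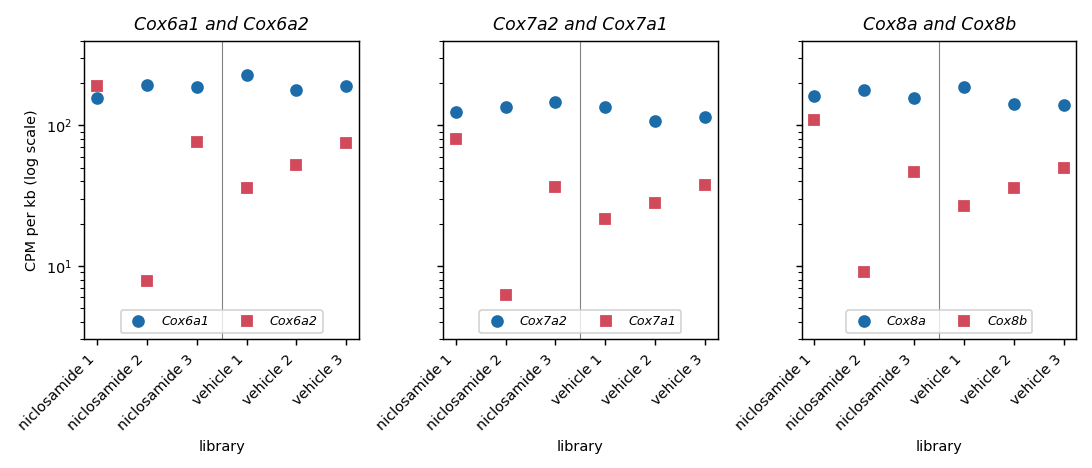
Level per library in CPM per kilobase (log scale) of the broadly expressed complex IV genes Cox6a1, Cox7a2 and Cox8a (circles) and of their muscle isoforms Cox6a2, Cox7a1 and Cox8b (squares), with niclosamide 1 to 3 left of vehicle 1 to 3. The muscle isoforms peak in niclosamide 1 and are at their lowest in niclosamide 2, while the broad genes stay between 107 and 228.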

How the data were processed

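The deposited values are raw read counts per gene symbol in 6 libraries; per the file headers, the authors counted exons with featureCounts from Subread 1.4.6-p4 with the reverse-stranded setting on GRCm38.p3, and reads that align to several places or overlap several genes were not counted by that tool's defaults. STAR 2.4.2a, Trimmomatic 0.33, edgeR 3.12.0 and bcl2fastq 1.8.4 are listed in the submitters' processing notes. By the longest annotated transcript of each gene, 23 members share at least 1 stretch of 50 bases with another annotated gene. The highest share was 47.9% of the transcript (Atp5h), and these genes can be undercounted. Some of these transcripts differ in length from the counted exons, so the shares are approximate.

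The members, lists and named genes were chosen with earlier results of these data known. Named genes were a fixed set of 22 (core subunits, complex II, paralog pairs and the muscle isoforms) and the largest and smallest fold change in complexes I, III, IV and V. Genes were kept by filterByExpr (minimum count 10, total 15), scaled by TMM and tested by edgeR 4.0.16 (quasi-likelihood, robust) in R 4.3.3, with Benjamini-Hochberg adjustment over all 17364 genes and a threshold of 0.05. Log2 CPM used a prior count of 2. The muscle fit added the mean of the fast muscle markers and had 3 residual degrees of freedom. The labels give separate mice except for the pool, so p-values measure the spread between these samples. DESeq2 1.42.0, limma-voom (limma 3.58.1), other scalings and filters, leave-outs of each library and a block on the replicate number were alternatives. Lengths count exons on the chromosome, not on other sequences of the build. Promoter windows came from RefSeq; all 55 members matched.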

Additional observations from a re-analysis of the deposited data

How the results depend on the processing

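No member passed the adjusted threshold under any alternative run. The median over the members ranged from 0.0548 to 0.0852 under the scalings, filters, tools and the muscle covariate, and from -0.0250 to 0.159 when single libraries were left out; that of complex II ranged from -0.0301 to 0.215. Genes called over all genes numbered 0 with edgeR, against 176 with DESeq2, 1 with no filter and 14 without niclosamide 1 and 2; the cause was not tested. The deviations of same-numbered libraries from their group means correlated at -0.0846, -0.0875 and 0.266. Vehicle 3 was the best match of both niclosamide 1 and niclosamide 3, so these values cannot decide whether the numbers pair the libraries. The main fit did not pair them. With the replicate number as a block the median was 0.0576 and 0 members were called. For the 25 named genes, 339 of 375 alternative values kept their direction and 36, in 16 genes, turned, none of them called. Cox4i1 was -0.00123 with upper-quartile scaling and -0.00384 with no filter. Cox6a2, Cox7a1 and Cox8b were -0.142, -0.154 and -0.0783 with limma-voom and -0.0565, -0.0774 and -0.0216 with the block. Without niclosamide 1 and 2, Ndufv1 was -0.0123, Cyc1 -0.0231, Cox5a -0.103, Cox8a -0.0152 and Atp5b -0.0262. With single libraries left out, the log2 fold change ranged from -0.151 to 0.286 for Ndufs1, -0.178 to 0.184 for Ndufv1, -0.00387 to 0.0618 for Ndufs8, -0.111 to 0.234 for Sdha, -0.0931 to 0.136 for Sdhc, -0.137 to 0.0707 for Uqcrc1, -0.0980 to 0.104 for Cyc1, -0.0950 to 0.0918 for Cox4i1, -0.0835 to 0.162 for Cox5a, -0.0402 to 0.125 for Atp5b, -0.125 to 0.155 for Atp5g1, -0.127 to 0.0172 for Atp5g3, -0.385 to 1.28 for Cox6a2, -0.453 to 0.991 for Cox7a1 and -0.437 to 1.03 for Cox8b. The lowest count of any member in any library was 1013 (Ndufb2), so the members were counted deeply; what limited the calls was not tested.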
